A study of Mus musculus with 2 samples.

Results

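Mitochondria make a small set of respiratory chain proteins on a ribosome of their own, and the proteins of that ribosome, together with nearly all other mitochondrial proteins, are encoded in the nucleus and imported. The genes described here are those of the mitochondrial ribosome (Mrpl genes for the large subunit, Mrps genes for the small subunit) and of the translocases that carry proteins across the outer membrane (Tomm) and into or across the inner membrane (Timm). They were chosen by symbol alone, as every gene whose single symbol in the platform annotation starts with Mrpl, Mrps, Timm or Tomm followed by a digit. The rule found 95 genes on 221 spots, among 10791 named genes with a value on the arrays: 47 of the large subunit, 26 of the small subunit and 22 of import. A value was present for 94 of them at 6 h and for all 95 at 12 h, the small subunit gene Mrps30 lacking one at 6 h. Mrps6, Timm8a1 and Timm10b occurred only on spots shared with another gene and are not members.

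The study asked how mechanical shear affects mouse flexor tendon cells. Sheared-cell RNA and the control RNA of that hour were hybridised together on spotted arrays of 2 colours, 1 array at 6 h and 1 at 12 h. The control RNA carried Cy3 and the RNA of sheared cells Cy5 on both arrays. The 6 h labels call both RNAs pooled cells, the 12 h labels name tenocytes (tendon fibroblasts) as the control, and give the shear as 50 rpm. The sources used here give no strain, age, culture conditions or replicates. No test was possible with 1 array per time point, and the words higher and lower refer to these 2 hybridisations alone. In bulk RNA, fewer cells of a type and less RNA per cell cannot be told apart.

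All values below are log2 ratios of sheared over control after the median of all spots on the array was subtracted, and a gene's value is the median of its spots. The base of 2 is assumed, and the direction is likely rather than known: it rests on the dyes in the labels and on the red over green convention of the Stanford database that holds the images. Should the ratio in fact be control over sheared, all signs below turn, and the 48 of 94 members at 6 h and 70 of 95 at 12 h given as at least 1.5-fold higher become lower in sheared cells. Without centring every 6 h value would be lower by 0.323 and every 12 h value by 0.479. The one available error is the scatter between different spots of a gene, with a pooled SD of 0.738 at 6 h and 0.855 at 12 h over the whole array. Among the members with 2 or more spots, 68 at 6 h and 69 at 12 h, the median spot SD was 0.245 and 0.237. A median gives less weight to genes whose spots disagree, so these figures cannot be set against the pooled SDs. A pooled SD of the members was not computed. The arrays hold ratios, not levels, so the labelled cell type could not be checked by the abundance of its markers. Of 14 tenocyte and fibroblast markers 10 were measured, with ratios between -1.16 and 0.67 at 6 h and between -1.81 and 0.75 at 12 h. Markers of leukocytes, endothelium, skeletal muscle and blood had list medians between -0.79 and 0.31 over both arrays, on 2 to 4 genes each; leukocyte markers ranged from -5.42 to 0.58 at 6 h and from -2.31 to 1.70 at 12 h. Their part in the results was not tested.

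Most genes of the mitochondrial ribosome and of import read higher in the sheared cells at both times. Their median was 0.63 at 6 h, a 1.54-fold higher reading (quartiles 0.42 and 0.93, n = 94 genes), and 1.03 at 12 h, or 2.04-fold (quartiles 0.55 and 1.40, n = 95 genes). Over all genes the medians were -0.11 and -0.14. A member was counted from 1.5-fold, which is 0.585 on the log2 scale. At 6 h 48 of 94 members were at least 1.5-fold higher, or 51.1%, against a background of 18.2% of all genes, and 2 were at least 1.5-fold lower, against a background of 31.3%; 1 of these, Mrps27, was also 2-fold lower, against 18.8% of all genes. At 12 h 70 of 95 members, or 73.7%, were at least 1.5-fold higher, against 24.4% of all genes, and 1 was lower, against 33.1%. At 2-fold, 16 members at 6 h and 51 at 12 h were higher, where 6.2% and 14.5% of all genes were. Without centring, 25 members were 1.5-fold higher and 2 lower at 6 h, and 44 were higher and 8 lower at 12 h. The shares of all genes given here are for centred values, and those without centring were not computed. Of the 94 members with both values, 81 lay above 0 on both arrays, against 35.5% of all genes, and 3 lay below 0 on both. The other 10 had opposite signs, against 19.4% of all genes.

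The 3 roles had the same order of medians at both times, with import highest and the small subunit lowest, but their values overlapped widely. Import genes had a median of 0.78 at 6 h and 1.33 at 12 h. Large subunit genes had a median of 0.66 at 6 h and 1.01 at 12 h, and small subunit genes 0.51 and 0.77. The large subunit median exceeded that of the small subunit by 0.14 at 6 h and 0.25 at 12 h. The 6 h gap turned to -0.02 over genes with 2 or more spots, and it was 0.05 when Mrps18a and Mrps30, whose proteins sit in the large subunit in structures of the mammalian ribosome, were counted there. The import median exceeded that of all ribosome genes together by 0.18 at 6 h, which became 0.005 when each print block was centred on its own median, and by 0.32 at 12 h, which became 0.17 over genes with 2 or more spots.

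**Figure D1:**
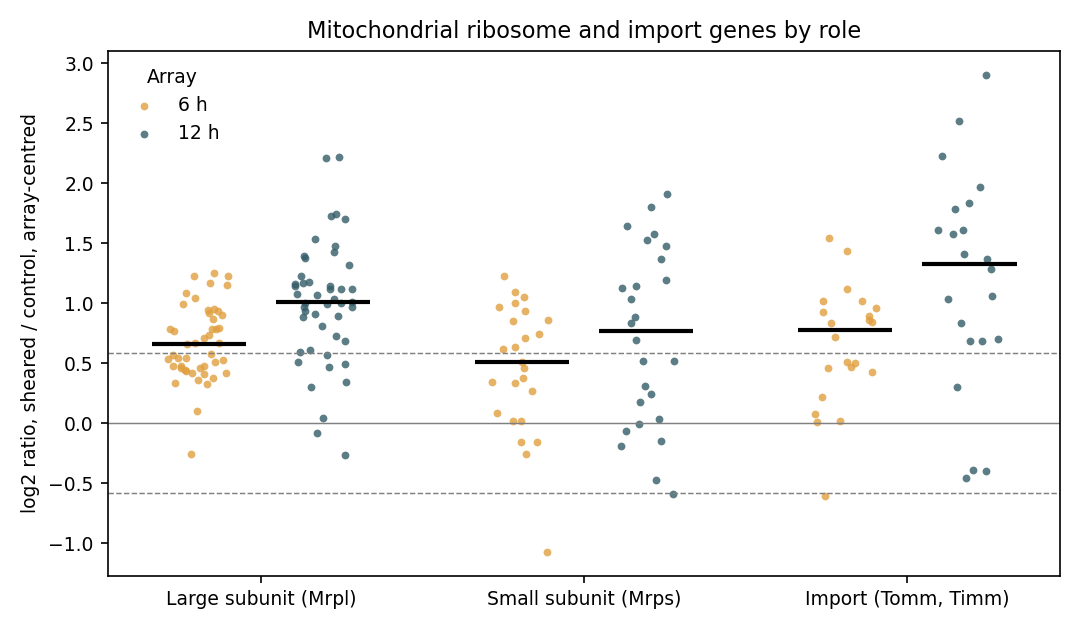
Log2 ratio of sheared over control cells (vertical axis, array-centred) for each gene of the large subunit, small subunit and import machinery at 6 h and 12 h. Points are genes, black bars are group medians and dashed lines mark 1.5-fold. The medians are 0.66, 0.51 and 0.78 at 6 h and 1.01, 0.77 and 1.33 at 12 h, and the 3 groups overlap.

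Large subunit genes formed the tightest group. The large subunit carries the peptidyl transferase centre and the exit tunnel through which new chains leave. At 6 h 24 of 47 genes read higher by 1.5-fold or more, 0 read lower by that much, and 46 lay above 0. At 12 h 38 of 47 read higher and 0 lower by that fold, and 26 of them reached 2-fold. The SD between genes was 0.31 at 6 h and 0.51 at 12 h, below the 0.53 and 0.74 of the small subunit.

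Mrpl23, a homologue of a bacterial protein at the mouth of the exit tunnel, was the highest gene of the subunit by the mean of both arrays. It read 1.15 at 6 h (spot SD 0.23, 2 spots) and 2.22 at 12 h (spot SD 0.34, 2 spots), a 2.22-fold and a 4.65-fold higher reading. Mrpl52, a protein with no bacterial counterpart, read 0.80 at 6 h and 2.21 at 12 h, but its 2 spots at 12 h stood far apart, at 1.31 and 3.11. Mrpl33 read 1.08 at 6 h and 1.72 at 12 h, and Mrpl57 read 1.23 and 1.54, each on 1 spot. All 4 of these genes were higher on both arrays, and Mrpl52 gained most between them.

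Several large subunit genes had close agreement between spots. Mrpl32, a subunit protein that is matured by a protease inside mitochondria, read 1.22 at 6 h (spot SD 0.03, 3 spots) and 1.12 at 12 h (spot SD 0.08, 3 spots). Mrpl12, which forms the flexible stalk that contacts translation factors, read 0.72 (spot SD 0.09, 3 spots) and 0.81 (spot SD 0.17, 3 spots). Its binding partner in the stalk, Mrpl10, read 0.99 and 1.70 on 1 spot. Mrpl13 read 0.77 (spot SD 0.07, 2 spots) and 1.23 (spot SD 0.20, 2 spots), and Mrpl17 read 0.87 (spot SD 0.10) and 1.18 (spot SD 0.12). Mrpl10, on 1 spot, cannot show agreement between spots and is given as the partner of Mrpl12. These 5 genes were chosen as examples after their values were seen.

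The lowest large subunit genes were Mrpl19, Mrpl47, Mrpl44 and Mrpl42. Mrpl19 read 0.42 at 6 h and -0.08 at 12 h on 1 spot, and Mrpl47 read 0.33 and 0.04 on 2 spots. Mrpl44, whose protein has a ribonuclease III fold, read 0.74 at 6 h (spot SD 0.04) and -0.26 at 12 h (spot SD 0.31), and it was the member that dropped furthest between the arrays. Its 2 spots gave 0.77 and 0.71 at 6 h and -0.04 and -0.48 at 12 h, so both spots were on the same side on each array. Mrpl42 read -0.26 at 6 h, where its 2 spots stood at 0.76 and -1.27, and 0.97 at 12 h. Mrpl1, a homologue of a bacterial stalk protein, had the largest spot SD of all members at 12 h: it read 0.57 at 6 h and 0.51 at 12 h, with spots at 1.78 and -0.76 at 12 h.

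Small subunit genes were spread more widely. The small subunit decodes the messenger RNA. Past 1.5-fold, 12 of 25 genes lay on the higher side and 1 on the lower at 6 h, and 14 of 26 and 1 at 12 h. The quartiles ran from 0.09 to 0.86 at 6 h and from 0.07 to 1.33 at 12 h. Those of the large subunit were 0.46 and 0.91 at 6 h and 0.71 and 1.205 at 12 h. With Mrps18a and Mrps30 counted in the large subunit, the small subunit medians were 0.57 and 0.86.

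Mrps12, the homologue of the bacterial decoding protein S12, read 0.93 at 6 h (spot SD 0.07, 2 spots) and 1.91 at 12 h (spot SD 0.60, 2 spots). Mrps23 read 1.23 at 6 h (spot SD 0.43, 3 spots) and 1.58 at 12 h (spot SD 0.24, 3 spots). Mrps7, whose bacterial homologue S7 starts assembly of the subunit head, had 5 spots and read 0.86 at 6 h (spot SD 0.10) and 1.65 at 12 h (spot SD 0.20). Its 5 spots ran from 0.67 to 0.94 at 6 h and from 1.40 to 1.95 at 12 h, so the 2 arrays did not overlap for this gene. Mrps16 read 0.97 and 1.48 on 1 spot. These 4 were the highest small subunit genes by the mean of both arrays.

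The lowest small subunit genes were Mrps27, Mrps9, Mrps35 and Mrps31. Mrps27, a pentatricopeptide repeat protein, read -1.07 at 6 h and -0.004 at 12 h on 1 spot, and it was one of the 2 members at least 1.5-fold lower at 6 h. Mrps9 read -0.26 at 6 h on 1 spot and -0.59 at 12 h (spot SD 0.13, 2 spots), just past 1.5-fold. It was the one member that far down at 12 h, and it was inside the threshold when both arrays were scaled to one median absolute deviation. Mrps35 read 0.09 at 6 h (spot SD 0.07) and -0.47 at 12 h (spot SD 0.39), and Mrps31 read 0.02 and -0.06 on 4 spots. None of these 4 genes was 1.5-fold higher on either array.

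Values of 2 further small subunit genes rest on spots that disagreed. Mrps34 read 0.02 at 6 h with 4 spots between -2.598 and 1.19 (SD 1.602), the largest spot SD of any member on that array, and 0.17 at 12 h (SD 1.18). Mrps17 read -0.16 at 6 h with 4 spots between -2.45 and 0.75 (SD 1.39) and 0.84 at 12 h with spots between -1.68 and 1.34 (SD 1.40). For both genes the spread between spots exceeded the value itself, so no direction can be read. Mrps36, since assigned to the 2-oxoglutarate dehydrogenase complex rather than the ribosome, read 0.71 at 6 h and 1.15 at 12 h (spot SD 0.18 and 0.41, 4 spots).

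Mrpl and Mrps genes listed as having a bacterial homologue and those not so listed had medians close to each other. Proteins with a bacterial homologue (43 of the 73 ribosome genes) had medians of 0.58 at 6 h and 1.04 at 12 h. All other Mrpl and Mrps genes, Mrps36 among them, had medians of 0.64 over 29 genes at 6 h and 0.95 over 30 genes at 12 h. The gap between both classes was -0.06 at 6 h and 0.09 at 12 h, and it changed sign between the arrays.

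Import genes ranged from -0.60 to 1.55 at 6 h and from -0.46 to 2.91 at 12 h. Proteins bound for mitochondria are recognised by receptors of the outer membrane translocase, pass its channel and are then handed to the small TIM chaperones, to the TIM22 complex for carrier proteins, or to the TIM23 complex, whose motor pulls proteins into the matrix. Past 1.5-fold, 12 of 22 import genes lay on the higher side and 1 on the lower at 6 h, and 18 and 0 at 12 h.

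The small TIM chaperones, which escort hydrophobic proteins across the intermembrane space, were the highest subgroup. All 4 measured genes were at least 1.5-fold higher on both arrays, with medians of 0.95 at 6 h and 2.03 at 12 h. Timm10 read 1.55 at 6 h (spot SD 0.15) and 2.23 at 12 h (spot SD 0.04), with spots at 1.65 and 1.44 and at 2.20 and 2.26. It was the highest member of all at 6 h, at 2.92-fold. Timm8b read 0.96 at 6 h (spot SD 0.08, 3 spots) and 1.84 at 12 h (spot SD 0.06, 3 spots), with no overlap between the spots of the 2 arrays. Timm13 read 0.93 (spot SD 0.34) and 1.41 (spot SD 0.06). Timm8a2 read 0.90 at 6 h and 2.91 at 12 h, the highest member at 12 h and the one that gained most, but it rests on 1 spot and belongs to a pair of near copies with Timm8a1.

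In the outer membrane translocase 5 of 10 genes at 6 h and 7 of 10 at 12 h were at least 1.5-fold higher, and Tomm40l, Tomm34 and Tomm70a were below 0 at 12 h. Tomm7, a small subunit that bears on the stability of the complex, read 1.12 at 6 h (spot SD 0.28) and 2.52 at 12 h (spot SD 0.12), a 5.72-fold higher reading. Tomm6 read 0.43 and 1.61 on 1 spot, and Tomm5 read 1.02 (spot SD 0.12) and 0.70 (spot SD 0.06). Tomm20, a receptor for presequences, had 7 spots and read 1.02 at 6 h (spot SD 0.29) and 1.37 at 12 h (spot SD 1.10), where 1 spot stood at -1.34 and the other 6 between 0.20 and 1.64. Tomm22, the central receptor, read 0.86 (spot SD 0.29) and 1.03 (spot SD 0.12) on 4 spots.

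The channel gene Tomm40 read 0.47 at 6 h (spot SD 0.17) and 1.06 at 12 h (spot SD 0.26). Its paralogue Tomm40l read -0.60 (spot SD 0.22, 3 spots) and -0.39 (spot SD 0.24, 3 spots), and it was the other member at least 1.5-fold lower at 6 h. The spots of the paralogue did not overlap those of Tomm40 on either array. Tomm34, a cytosolic cochaperone, read 0.01 at 6 h (spot SD 0.41) and -0.46 at 12 h (spot SD 0.08). Tomm70a, a receptor for carrier precursors, read 0.07 at 6 h with 3 spots between -0.35 and 2.25 (SD 1.39) and -0.40 at 12 h. Tomm20l, a paralogue of Tomm20, read 1.44 at 6 h and 0.69 at 12 h on 1 spot.

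The inner membrane complexes read higher at 12 h than at 6 h in all 8 genes. In the TIM23 complex the channel gene Timm23 read 0.84 at 6 h (spot SD 0.53) and 1.79 at 12 h (spot SD 0.16). The paired paralogues Timm17a and Timm17b, each on 4 spots, read 0.84 (spot SD 0.12) and 0.72 (spot SD 0.19) at 6 h and 1.28 (spot SD 0.13) and 1.58 (spot SD 0.16) at 12 h. Timm21 read 0.46 and 1.97 on 1 spot, and the receptor Timm50 read 0.50 (spot SD 0.12) and 0.83 (spot SD 0.41). Timm44, the anchor of the import motor, stood apart with 0.02 at 6 h (spot SD 0.85) and 0.30 at 12 h (spot SD 0.57) over 6 spots. In the TIM22 complex Timm22 read 0.51 (spot SD 0.49) and 1.61 (spot SD 0.98) on 4 spots, and Timm29 read 0.22 (spot SD 0.08) and 0.68 (spot SD 0.13).

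**Figure D2:**
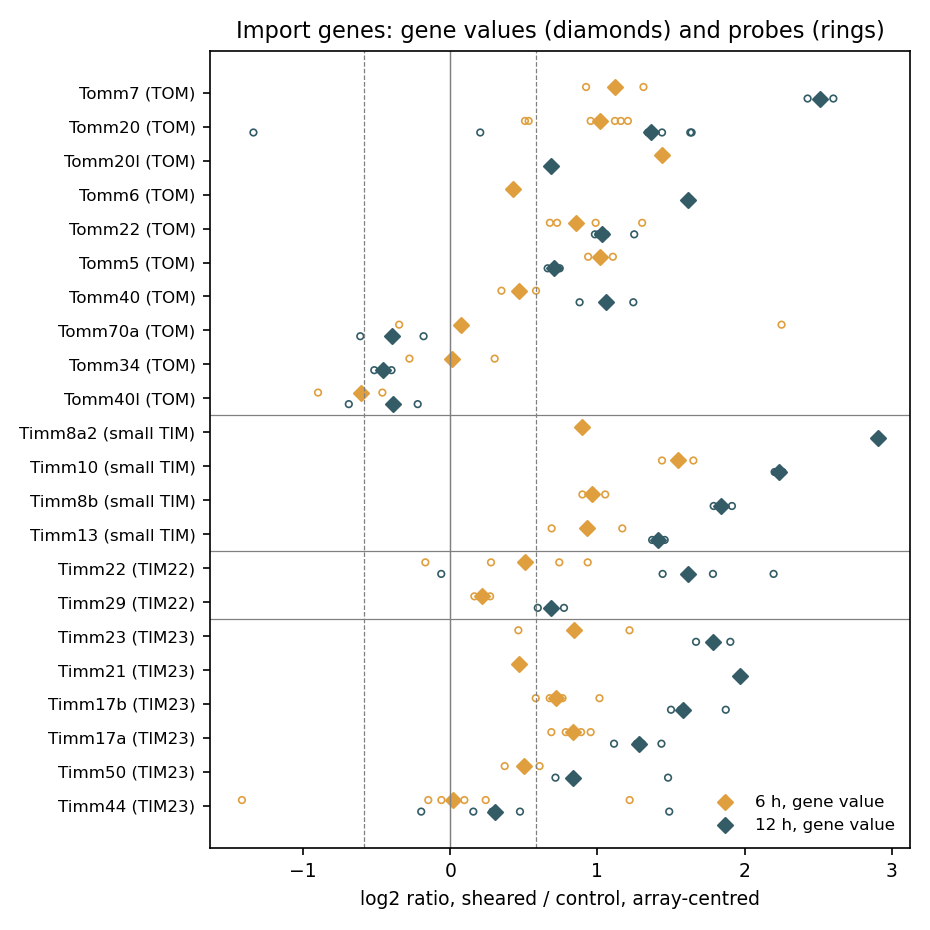
Log2 ratio (horizontal axis, array-centred) of the 22 import genes, grouped into the outer membrane translocase (TOM), small TIM chaperones, TIM22 and TIM23. Diamonds are gene values, rings are single spots, and dashed lines mark 1.5-fold. All 4 small TIM genes lie right of the upper line on both arrays, Tomm40l, Tomm34 and Tomm70a lie left of 0 at 12 h, and rings far from their diamond (Tomm20, Tomm70a, Timm44) show where spots disagree.

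Between the arrays the members shifted upwards more often than downwards. The median of the 12 h value minus the 6 h value was 0.35 over 94 genes, with 70 genes higher at 12 h and 24 lower, against a median of 0.12 over 10286 genes. At least a 1.5-fold gain was seen in 31 members, or 33.0%, against 24.9% of all genes, and at least a 1.5-fold loss in 2 members, or 2.13%, against 17.4%. The medians were 0.48 for import, 0.35 for the large subunit and 0.15 for the small subunit. The 12 h array is wider than the 6 h array for all spots, with a median absolute deviation 1.26 times as large. With both arrays scaled to one deviation the median gain of the members was 0.20, and without centring it was also 0.20. The 2 arrays compare different RNA pairs, so a difference between times includes any difference between the 2 hybridisations.

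The members that gained most were Timm8a2, Timm21 and Mrps21, by 2.01, 1.51 and 1.46, all on 1 spot, followed by Mrpl52 (1.41) and Tomm7 (1.40). Mrpl44 and Tomm20l were the 2 members with at least a 1.5-fold loss, at -0.9995 and -0.75. At least 1.5-fold higher on both arrays were 46 members, or 23 of 47 large subunit, 11 of 25 small subunit and 12 of 22 import genes, where 13.8% of all genes were. A further 24 members passed that fold at 12 h and not at 6 h, and 2 members, Mrpl44 and Mrps26, at 6 h and not at 12 h. Across the 94 members Pearson's r between the arrays was 0.63, and across 10286 genes it was 0.66. This is a description across genes, which are not independent and share 1 hybridisation per array.

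**Figure D3:**
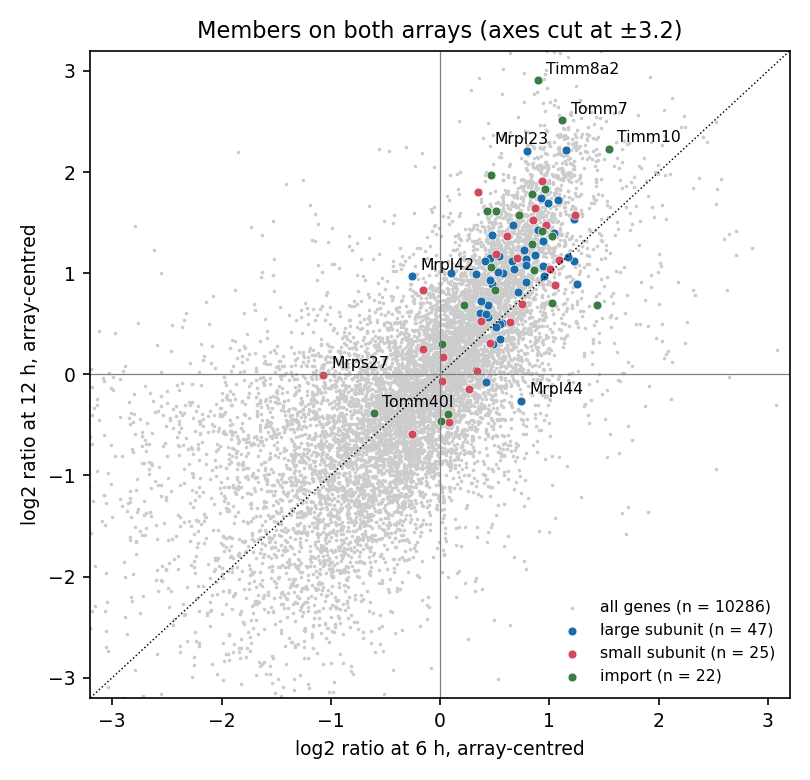
Log2 ratio at 12 h (vertical axis) against 6 h (horizontal axis), both array-centred, for all genes on both arrays (grey) and for the members by role. The dotted line marks equal values, and the axes leave out genes beyond 3.2. Most members lie in the upper right, above the line, and 46 of 94 are at least 1.5-fold higher on both arrays.

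The same spots can be read gene by gene as a check within an array. Of 68 members with 2 or more spots at 6 h, 55 had all spots on one side of 0, and for 54 of these that side was above. At 12 h this held for 58 of 69 members, 52 of them above. The same shares over all genes with 2 or more spots were not computed. The agreement of the members can therefore not be compared with that of other genes. Members resting on 1 spot at 12 h read higher than the others, more so at 6 h, where their median was 0.90 (25 genes) against 0.55 (69 genes) and 64.0% against 46.4% were at least 1.5-fold higher. At 12 h the medians were 1.10 (26 genes) and 1.01 (69 genes).

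Other genes of mitochondrial gene expression did not share the level of the ribosomal proteins. A list of 43 genes held translation factors, assembly factors and aminoacyl-tRNA synthetases of mitochondria, and also ribosomal proteins without an Mrp name. The list had medians of 0.07 at 6 h and -0.06 at 12 h over 30 measured genes each. Past 1.5-fold, 6 lay on the higher side and 6 on the lower at 6 h, and 8 and 7 at 12 h. The sign of both medians changed with the processing, so no direction can be given. The Mrpl and Mrps genes exceeded this list by 0.53 at 6 h and 1.06 at 12 h. Ribosomal proteins within the list had medians of 0.98 at 6 h (3 genes) and 0.92 at 12 h (2 genes). The 11 measured synthetases, which charge mitochondrial transfer RNAs, had medians of -0.38 and -0.36; this subset was set apart after its values were seen.

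Within that list single genes did read like the ribosomal proteins. The highest by the mean of both arrays were Ptcd3, a small subunit protein without an Mrps name, at 0.98 and 1.37 on 1 spot, and the elongation factor Tufm, at 1.04 (spot SD 0.55) and 1.13 (spot SD 0.13). The membrane insertase Oxa1l, which receives new chains from the ribosome, read 0.66 (spot SD 0.29) and 0.97 (spot SD 0.09). The lowest were the synthetases Ears2, at -1.25 (spot SD 0.75) and -0.86 (spot SD 0.18), and Fars2, at -1.09 and -0.85 on 1 spot, and the small subunit assembly factor Eral1, at -1.41 and -0.49 on 1 spot.

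Other import and processing genes had medians of 0.56 at 6 h and 0.75 at 12 h over 26 genes, with 13 higher and 2 lower at 6 h and 17 higher and 2 lower at 12 h. The highest were the cochaperonin Hspe1, at 1.07 (spot SD 1.12) and 1.97 (spot SD 1.98), Romo1, at 0.93 (spot SD 0.15) and 1.99 (spot SD 0.32), and the motor cochaperone Grpel1, at 0.82 (spot SD 0.18) and 1.90 (spot SD 0.07). The lowest were the protease subunit Clpx, at -0.79 and -1.76, the cochaperone Dnaja3, at -0.16 and -0.87, and the protease Afg3l2, at -0.06 and -0.58. Clpx and Afg3l2 each rest on 1 spot.

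Genes that copy or transcribe mitochondrial DNA or act on its RNA had medians of 0.02 at 6 h and 0.17 at 12 h over 16 genes. Both medians turned negative without centring, and the 12 h median also did over genes with 2 or more spots, at -0.02. The highest were the transcription factor Tfb2m, at 1.14 and 0.70, the RNA-binding protein Slirp, at 0.73 and 1.08, and the DNA-packaging factor Tfam, at 0.78 and 0.76. The lowest were the helicase Supv3l1, at -0.56 and -2.06, Lrpprc, which binds Slirp and stabilises mitochondrial messenger RNA, at -0.41 and -1.56, and the nuclease Mgme1, at -0.37 and -0.88. Slirp, Tfam, Supv3l1 and Mgme1 each rest on 1 spot. Slirp and its partner Lrpprc (2 spots) had opposite signs on both arrays.

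Nuclear regulators of mitochondrial genes had medians of 0.07 and -0.26 over 8 genes. The first turned to -0.26 without centring and the second to 0.004 with the mean of spots, so no direction can be given for the list. The growth regulator Myc read 2.33 at 6 h (spot SD 0.23) and 0.78 at 12 h (spot SD 0.22), a lower reading at 12 h than at 6 h. The coactivator Ppargc1a read 0.50 and 0.92 on 1 spot, and the receptor Esrra 0.08 and 0.22. The lowest were Nrf1, at -0.85 (spot SD 0.85) and -0.49 (spot SD 0.25), the ETS factor Gabpa, at -0.40 and -0.68, and Pprc1, at 0.06 and -0.50. Gabpa and Pprc1 each rest on 1 spot.

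Beside other large complexes, the mitochondrial ribosome read lower than the cytosolic ribosome and the respiratory chain. Cytosolic ribosomal protein genes had medians of 1.17 and 2.22 over 67 genes, above those of the mitochondrial ribosome by 0.57 at 6 h and 1.21 at 12 h. Their highest genes were Rps29, Rps18 and Rpl37, between 1.28 and 1.43 at 6 h and between 2.55 and 2.71 at 12 h, and their lowest were the paralogues Rpl3l, Rpl22l1 and Rpl7l1, the last at 1.02 and 0.64. Respiratory chain genes, listed together with ATP synthase genes, had medians of 0.90 and 1.77 over 82 genes. The highest were Uqcrh at 1.41 and 2.47, the ATP synthase gene Atp5g1 at 1.35 and 2.44 and Ndufa1 at 1.34 and 2.32. At the low end were the tissue isoforms Cox7b2, Cox7a1 and Cox8b, the last at -2.91 and 0.03 on 1 spot. Citric acid cycle genes had medians of 0.42 and 0.36 over 17 genes, the second turning to -0.11 without centring. Mdh2 read 1.11 and 1.88, Idh3g 0.72 and 1.496 and Pdhb 0.73 and 1.18, the last on 1 spot. Ogdh read -0.04 and -0.52, Pcx 0.21 and -0.61 and Dlat -0.21 and -0.18. The outer membrane channels Vdac1, Vdac2 and Vdac3 read 0.29, 0.79 and 0.69 at 6 h and 0.64, 1.202 and 0.83 at 12 h.

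**Figure D4:**
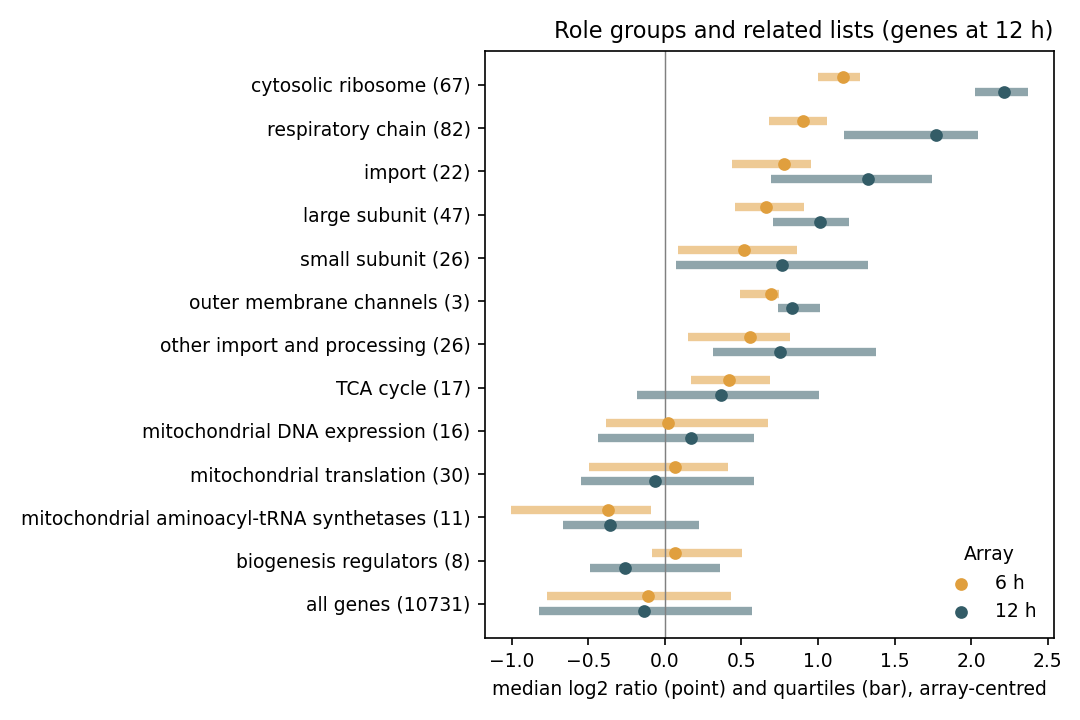
Median (point) and quartiles (bar) of log2 ratios for the 3 role groups, related mitochondrial lists, the cytosolic ribosome and all genes, at 6 h and 12 h, with the number of genes at 12 h in brackets. Cytosolic ribosome and respiratory chain (with ATP synthase) lie highest at 12 h (2.22 and 1.77), the role groups between 0.77 and 1.33. The mitochondrial translation list lies near 0.

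Gene size moved with these values. In RefSeq (GRCm38.p6) all 95 members were found by gene ID, and their median span on the genome was 7.63 kb, against 21.5 kb for the genes measured at 12 h. Across all genes the ratio was lower for longer genes, with Pearson's r between the log10 of the span and the ratio of -0.25 at 6 h (10312 genes) and -0.35 at 12 h (10692 genes). Among the members r was -0.32 and -0.37. The median of the members was above that of other genes in each size class. Under 5 kb the medians were 0.79 for 32 members and 0.18 for 1458 other genes at 6 h, and 1.05 and 0.22 at 12 h. From 10 to 20 kb they were 0.56 for 18 members and 0.13 for 1973 other genes at 6 h, and 0.97 and 0.17 at 12 h. Over 50 kb, 5 members had medians of 0.34 and 0.04, against -0.63 and -0.75 for other genes, but none of the 5 was at least 1.5-fold higher on either array, where 5.52% and 8.49% of the other genes were. Transcript length, abundance and spot brightness were not measured, and their part in the result was not tested.

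**Figure D5:**
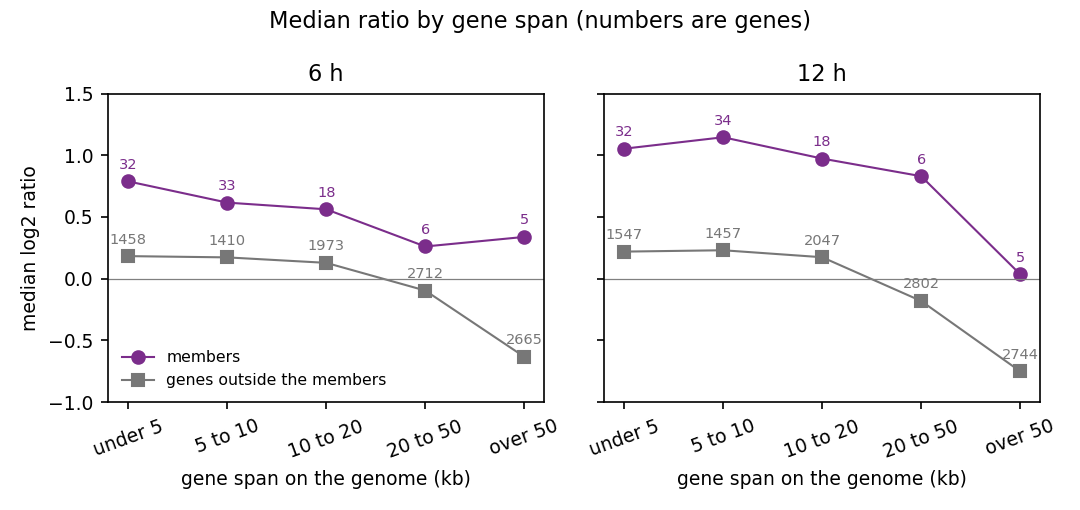
Median log2 ratio (vertical axis, array-centred) by span of the gene on the genome in kb (horizontal axis), for members and all other genes, at 6 h (left) and 12 h (right). Numbers beside the points count genes. Values of the other genes are lowest in the longest class, and the members lie above the other genes in each class, at 0.79 against 0.18 in the shortest class at 6 h.

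Many members have a neighbour that starts close by and runs the other way. Of the 83 members with a promoter window in the RefSeq table, 29, or 34.9%, had the start of another gene within 1000 bases upstream on the opposite strand, against 18.2% of 8740 genes of the array with a window. Mrpl46 and Mrps11, with starts 42 bases apart, are both members, each on 1 spot. They read 0.48 and 0.38 at 6 h, and 0.30 and 0.52 at 12 h. The other partners had medians of 0.26 at 6 h and 0.30 at 12 h over 21 measured genes, with 7 at least 1.5-fold higher on each array, where 18.2% and 24.4% of all genes were. At least 1.5-fold lower were 5 partners at 6 h and 7 at 12 h, where 31.3% and 33.1% of all genes were. The pair Timm8b and Sdhd, a subunit of succinate dehydrogenase, read 0.96 and 0.40 at 6 h and 1.84 and 1.11 at 12 h. Mrpl32 and the proteasome gene Psma2 read 1.22 and 1.03 at 6 h and 1.12 and 1.40 at 12 h.

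Other pairs went apart. Mrps12 read 0.93 and 1.91, while Sars2, the mitochondrial seryl-tRNA synthetase that starts 147 bases away, read -0.92 and -0.39. Mrpl40 read 0.79 and 0.91 on 1 spot, against -1.02 and -1.22 for the histone chaperone Hira 113 bases away. Mrps27 and its neighbour Ptcd2 both read low at 6 h, at -1.07 and -1.23, and went apart only at 12 h, at -0.004 and -2.53. These pairs were picked after their values were seen.

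Short motifs were found in a larger share of member promoters than of promoters at large, though not in each role. The windows run from 250 bases before to 50 bases after a start, and 3 motifs were searched on both strands: CCGGAAG, the core bound by ETS factors such as GABP, GCGCATGC, the core bound by NRF1, and AAGATGGC, bound by YY1. These factors are textbook regulators of nuclear genes for mitochondria. The ETS core was in 34 of 91 member windows, or 37.4%, against 15.6% of 11097 windows of genes on the array and 8.86% of all 32851 windows in the table. The NRF1 core was in 8 windows, or 8.79%, against 4.78% and 2.71%, and the YY1 core in 13, or 14.3%, against 3.89% and 2.75%. By role the ETS core was in 30.4% of large subunit, 45.8% of small subunit and 42.9% of import windows. The NRF1 core was in 6 of 46 large subunit windows, but in 1 of 24 small subunit windows (4.17%) and 1 of 21 import windows (4.76%), no larger a share than in windows of genes on the array. The YY1 core was in 6 of 46 large subunit, 6 of 24 small subunit and 1 of 21 import windows. In windows of respiratory chain and ATP synthase genes the NRF1 core was found in 15.5% and the YY1 core in 14.1%. In windows of cytosolic ribosomal protein genes the ETS core was found in 39.7%, so that core does not set the members apart from these. Median GC content was 58.0% in member windows and 59.7% in windows of genes on the array. A match is a description of the letters and shows no binding.

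Members with an ETS core had a median of 0.84 at 6 h (33 genes) and 1.04 at 12 h, and those without 0.58 (49 genes) and 1.03 (50 genes). The 8 members with an NRF1 core had medians of 0.96 and 1.30, against 0.57 and 1.01 for those without. At 6 h the quartiles were 0.89 and 1.12 with the NRF1 core and 0.43 and 0.89 without. Members with a YY1 core had medians of 0.50 and 0.97 (13 genes), below the 0.71 and 1.05 of the others.

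The 120 bases before the start are shown for 5 genes at the high end of their role (Timm10, Timm8b, Mrpl52, Mrps16 and Mrpl33) and 2 at the low end (Mrps27 and Tomm70a), to let the motif be seen in members of both ends. They were chosen for holding a match. Mrps16 has another, outer start in the table whose upstream bases hold none. The stretch printed for Mrps16 precedes an inner start and lies within the annotated span of the gene. They are from RefSeq, GRCm38.p6, 5′ to 3′ on the strand of the gene, with motif matches in capitals (the ETS core in all but Mrpl33, which has the NRF1 core).
Timm10, chr2:84826901-84827020, plus strand: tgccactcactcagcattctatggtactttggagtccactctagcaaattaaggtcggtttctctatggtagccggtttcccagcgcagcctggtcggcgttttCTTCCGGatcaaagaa
Timm8b, chr9:50603781-50603900, plus strand: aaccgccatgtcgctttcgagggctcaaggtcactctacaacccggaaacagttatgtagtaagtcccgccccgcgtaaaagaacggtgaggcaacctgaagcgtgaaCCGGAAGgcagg
Mrpl52, chr14:54426789-54426908, plus strand: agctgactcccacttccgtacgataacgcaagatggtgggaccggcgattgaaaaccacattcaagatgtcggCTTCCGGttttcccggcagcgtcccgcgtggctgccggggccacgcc
Mrps16, chr14:20393491-20393610, minus strand: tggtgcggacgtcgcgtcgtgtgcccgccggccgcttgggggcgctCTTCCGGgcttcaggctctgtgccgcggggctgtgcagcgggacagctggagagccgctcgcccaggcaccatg
Mrpl33, chr5:31613831-31613950, plus strand: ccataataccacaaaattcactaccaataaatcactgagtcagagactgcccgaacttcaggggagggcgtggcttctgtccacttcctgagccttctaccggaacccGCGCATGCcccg
Mrps27, chr13:99344666-99344785, plus strand: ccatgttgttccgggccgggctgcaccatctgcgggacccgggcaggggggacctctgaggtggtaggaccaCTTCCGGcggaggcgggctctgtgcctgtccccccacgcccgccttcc
Tomm70a, chr16:57121594-57121713, plus strand: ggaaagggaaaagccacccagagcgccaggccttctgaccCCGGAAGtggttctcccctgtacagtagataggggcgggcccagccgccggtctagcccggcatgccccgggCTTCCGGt

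In these windows the match starts 16 bases before the start of Timm10, 12 before Timm8b, 47 before Mrpl52 and 12 before Mrpl33. For Mrps16 it starts 74 bases before the inner start, within the annotated gene. It starts 48 bases before Mrps27, and 80 and 8 before Tomm70a. Mrps27 read -1.07 at 6 h and -0.004 at 12 h on 1 spot, and Tomm70a read 0.07 and -0.40. Both carry the same ETS letters as Timm10 (1.55 and 2.23) and Mrpl52 (0.80 and 2.21). All were chosen for holding a match, and whether the core bears on the values was not tested. Capitals in the reverse reading, CTTCCGG, are the same core on the other strand.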

How the data were processed

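Both arrays come from 1 table of the series with a log2 ratio per spot, deposited by the authors; their scanner, background correction, normalization and spot filter are not given in the sources used here. The base of 2 is assumed. Of 42624 spots, 39776 were measured at 6 h and 41717 at 12 h. The median of all its spots (-0.323 and -0.479) was subtracted from each array. Spots were named by GEO's platform annotation, spots with several symbols were left out, and spots of one gene were combined by their median, giving 10346 genes at 6 h and 10731 at 12 h. Arrays have no counts and only their number limits the precision; no test was possible with 1 array per time point.

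The members and lists were chosen with earlier results of these data known. Named by rule were the 4 highest and 4 lowest genes of each role by the mean of both arrays, members at least 1.5-fold lower or past that fold on opposite sides, those with the 3 largest spot SDs on an array, and the 3 highest and 3 lowest of each related list. A planned split by protein length was not run, since no protein table was used here; gene span and head-to-head neighbours were added after the data were seen. Medians of gene values were checked on simulated data with less scatter between spots than the arrays have. Counts were not checked in this way. Alternatives were no centring, the mean of spots, 2 or more spots, genes on both arrays, spots with several symbols kept, equal array scale, print blocks of 900 spot numbers centred, other folds, and Mrps18a and Mrps30 moved. Python 3.11.15 with pandas 2.3.3 and NumPy 2.4.6 was used.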

Additional observations from a re-analysis of the deposited data

Results flagged for a closer look

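Of the 94 members with both values, 10 read on opposite sides of 0 at 6 h and 12 h, against 19.4% of all genes. The difference between times was not tested for any of them, there being 1 array per time. As 12 h minus 6 h, the differences were 1.23 for Mrpl42, 0.99 for Mrps17 and 0.40 for Mrps24, which were negative at 6 h. They were -0.9995 for Mrpl44, -0.56 for Mrps35, -0.50 for Mrpl19, -0.47 for Tomm34, -0.47 for Tomm70a, -0.41 for Mrps10 and -0.079 for Mrps31, which were negative at 12 h. Mrpl42, Mrpl44 and Mrps17 passed 1.5-fold on one of the arrays, and none of the 10 did so on both sides. The differences of Mrpl42, Mrpl44 and Mrps17 exceeded the pooled spot SD of 0.738 at 6 h and 0.855 at 12 h, and those of the other 7 did not. Mrpl42 and Mrps17 differed by less than the SD between their own spots at 6 h, 1.44 and 1.39. These SDs describe scatter between different spots, while the same spots were read at both times. Both spots of Mrpl42 were higher at 12 h, from 0.76 to 1.49 and from -1.27 to 0.45. Each of the 4 spots of Mrps17 was also higher at 12 h. With 1 array per time, a difference between the hybridisations cannot be told apart from a change with time.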

How the results depend on the processing

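Medians of the role groups stayed above 0 under each alternative run. They ranged from 0.34 to 0.74 at 6 h and 0.53 to 1.08 at 12 h for the large subunit, from 0.19 to 0.58 and 0.29 to 0.86 for the small subunit, and from 0.46 to 0.88 and 0.85 to 1.35 for import, lowest without centring in each case. Members at least 1.5-fold higher numbered 25 at 6 h and 44 at 12 h without centring, against 48 and 70. At 2-fold 16 were higher at 6 h, and at 3-fold 0 at 6 h and 16 at 12 h. Members lower at 6 h numbered 1 with print blocks centred, 1 over genes with 2 or more spots, 1 at 2-fold and 0 at 3-fold, against 2. At 12 h, against 1, they numbered 8 without centring, 2 with several symbols kept, and 0 at equal array scale, at 2-fold and at 3-fold. Shares of all genes were computed only for the main values, at 1.5-fold and 2-fold, and not for the other alternatives. The large minus small subunit gap ranged from -0.02 to 0.18 at 6 h and from 0.14 to 0.40 at 12 h, and the ribosome minus import gap from -0.23 to -0.005 and from -0.33 to -0.17. The median of mitochondrial translation genes ranged from -0.26 to 0.09 at 6 h and from -0.54 to 0.04 at 12 h. With several symbols kept, Idh2 at 6 h turned to -1.21 and Htra2 at 12 h to -0.42. A value counted as moved when it shifted by over the spot SD, a wide yardstick. Where a value changed, the cause was not tested. Spot brightness is unknown, so an intensity trend between dyes cannot be checked, and no dye was swapped.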
